A study of Mus musculus with 41 samples.

Results

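Yap1, its chromosome 9 neighbours Birc2 and Birc3, and 7 further genes of the Hippo pathway were followed tumor by tumor in 41 mouse mammary tumors. The 10 genes were taken by symbol from a table of 47480 gene symbols, and all 10 passed the filter on low values that left 17208 genes for testing. They were Yap1 and its paralog Wwtr1, which encodes TAZ, the DNA-binding partners Tead1 and Tead4, the target genes Ctgf, Cyr61, Ankrd1 and Amotl2, and the inhibitor of apoptosis genes Birc2 and Birc3. Of the tumors, all Balb/c, 28 were Plk2-/-; p53-/- and 13 were p53-/-. Both groups lacked p53, and the 28 also lacked Plk2, a polo-like kinase. Every tumor had been placed orthotopically in a syngeneic host and left untreated, and the ages of the animals are not given. The Plk2-/-; p53-/- tumors had been raised from donor mammary epithelial cells and passed on by transplantation. No label says which of the 28 share an origin, so p-values that use them measure the spread between tumors that may be related and may be too small. T11 is a transplantable p53-/- line that the study describes as claudin-low, and it describes PLK2null-743 as claudin-low as well.

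The Hippo pathway is a kinase cascade in which the MST kinases activate the LATS kinases, and LATS phosphorylates YAP and TAZ and keeps them out of the nucleus. Unphosphorylated YAP or TAZ enters the nucleus, binds TEAD factors and switches on genes such as Ctgf and Cyr61, which encode secreted matrix proteins. In the mammary gland the pathway is known for its links to cell shape, stiffness of the matrix and the balance of luminal and basal cells. Birc2 and Birc3 encode cIAP1 and cIAP2, ubiquitin ligases that restrain cell death and noncanonical NF-kB signalling. Much of the control over YAP and TAZ is exerted on the protein, which RNA does not show.

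The values are RNA signals in which the upper quartile of the nonzero genes of each tumor was set to 1000, so a gene at 1000 stood at that quartile. The implied depth was 29409598 to 70868089 sequenced fragments per tumor, and the floor of detection, set at 3 reads, corresponded to 1.16 to 2.45 in these units. Plk2, the targeted gene, averaged 3436 ± 2104 (SD, n = 13) with Plk2 intact and 298 ± 149 (SD, n = 28) without it, and the library labelled p53null-7435 was at 186. A series name stands in each of the 13 p53-/- library titles and in none of the other 28, so library series and genotype cannot be told apart. The tumors were sequenced whole, and a lower signal from fewer cells of a type and from less RNA per cell cannot be told apart. The summed signal of 6 epithelial markers (Epcam, Cdh1, Krt8, Krt18, Krt5 and Krt14) was 48.0 in PLK2null-743, 72.5 in PLK2null-733 and 361 in PLK2null-732, against 19143 in PLK2null-7763 and 41634 or more in the other 24 Plk2-/-; p53-/- tumors. The defining markers of mammary epithelium were thus nearly absent from these 3 tumors, while their summed signal of 6 endothelial markers was 165585 to 186496, against 78025 in PLK2null-7763 and at most 16463 in any other tumor. Relations between the 10 genes in the Plk2-/-; p53-/- tumors are given with and without these 3 tumors.

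On GRCm38 (GENCODE vM21) the 3 chromosome 9 genes lie in a row on the minus strand, Birc2 at chr9:7818227-7837064, Birc3 at chr9:7848699-7873186 and Yap1 at chr9:7931999-8004596. The gap between Birc2 and Birc3 is 11.6 kb and that between Birc3 and Yap1 58.8 kb. Wwtr1 lies at chr3:57455649-57575910, Tead1 at chr7:112679318-112906807, Tead4 at chr6:128224288-128300823, Ctgf at chr10:24595442-24598683, Cyr61 at chr3:145646976-145649981 and Ankrd1 at chr19:36111961-36120099. Amotl2 is on chromosome 9 as well, at chr9:102716672-102733418, but 94.7 Mb from Yap1. Birc2 and Birc3 are similar in sequence, and the share of 50-base stretches of the longest coding transcript that also occur in transcripts of another gene was 2.07% for Birc2 and 7.66% for Birc3. That share was 1.65% for Yap1, 8.60% for Ctgf and at most 0.330% for the other 6 genes, so that most positions of each transcript belong to 1 gene.

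The DNA just before the RefSeq start of the genes is shown because TEAD factors bind the 6-base motif GGAATG. This motif reads CATTCC on the other strand. A further reason is that the targets did not move together in these tumors. RefSeq promoters of GRCm38.p6 were available for 7 of the 10 genes, and the 250 bases before the start held the motif, on either strand, in 5 of the 7. Of all 32851 such windows 12.6% held it, and 14.4% of the genes with an entry held it in at least 1 window. Of the 22 listed YAP and TAZ targets 15 had an entry, and 6 of these held it. The window of Cyr61, chr3:145649986-145650235 on the minus strand, is given 5′ to 3′ with the motif in capitals.
Cyr61: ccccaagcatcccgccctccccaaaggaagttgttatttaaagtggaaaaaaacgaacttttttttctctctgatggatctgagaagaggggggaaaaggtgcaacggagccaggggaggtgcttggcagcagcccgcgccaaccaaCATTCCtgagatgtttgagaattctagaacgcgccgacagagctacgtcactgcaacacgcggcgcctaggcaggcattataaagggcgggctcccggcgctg

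The motifs of the other 4 genes are given with 10 bases on either side, on the strand of the gene. That of Yap1 lay at chr9:8004722-8004747, that of Wwtr1 at chr3:57576031-57576056, those of Ankrd1 at chr19:36120039-36120064 and chr19:36119952-36119977, and that of Amotl2 at chr9:102717729-102717754. RefSeq and GENCODE place the start of some genes differently. By the GENCODE positions given above, the sites of Ankrd1 and Amotl2 lie inside these genes and not before them.
Yap1: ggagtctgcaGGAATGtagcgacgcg
Wwtr1: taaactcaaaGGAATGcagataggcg
Ankrd1, first: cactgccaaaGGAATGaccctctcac
Ankrd1, second: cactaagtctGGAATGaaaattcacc
Amotl2: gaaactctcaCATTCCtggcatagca
The windows of Birc2 and Birc3 did not hold these letters, which says nothing about binding elsewhere. Ctgf, Tead1 and Tead4 are named only.

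Yap1, which encodes the main effector of the pathway, had its highest signal by far in 1 p53-/- tumor. In the 13 p53-/- tumors it ranged from 2330 in T11 through a median of 5492 to 33397 in p53null-5329, and the next tumor below, p53null-7435, was at 7457. In the 28 Plk2-/-; p53-/- tumors it ranged from 2797 in PLK2null-1980 through a median of 4253 to 14146 in PLK2null-743, followed by 12447 in PLK2null-733 and 11975 in PLK2null-732. p53null-5329 stood 4.48-fold above the highest of the other p53-/- tumors, and the 3 Plk2-/-; p53-/- tumors without epithelial markers stood above every other tumor except p53null-5329. The ranges of the genotypes overlapped over most of their length.

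Birc2, the cIAP1 gene, ranged from 337 in T11 through a median of 847 to 7155 in p53null-5329 in the p53-/- tumors, where the next tumor was at 1212. In the Plk2-/-; p53-/- tumors it ranged from 628 in PLK2null-1977 through a median of 970 to 4436 in PLK2null-743, with 3524 in PLK2null-733, 3187 in PLK2null-732 and 1982 in PLK2null-7763. The same 5 tumors were thus the highest for Birc2 as were highest for Yap1, in the same order.

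Birc3, the cIAP2 gene, was lowest at 348 in p53null-2153L, had a median of 635 and was highest at 7583 in p53null-5329 among the p53-/- tumors. Among the Plk2-/-; p53-/- tumors it was lowest at 477 in PLK2null-7748, had a median of 804 and was highest at 5134 in PLK2null-743, followed by 4113 in PLK2null-733, 4099 in PLK2null-732 and 2028 in PLK2null-7763. In p53null-5329 the 3 neighbours were 6.08-fold (Yap1), 8.45-fold (Birc2) and 11.95-fold (Birc3) above the p53-/- median. In PLK2null-743 they were 3.33-fold, 4.57-fold and 6.38-fold above the Plk2-/-; p53-/- median.

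**Figure D1:**
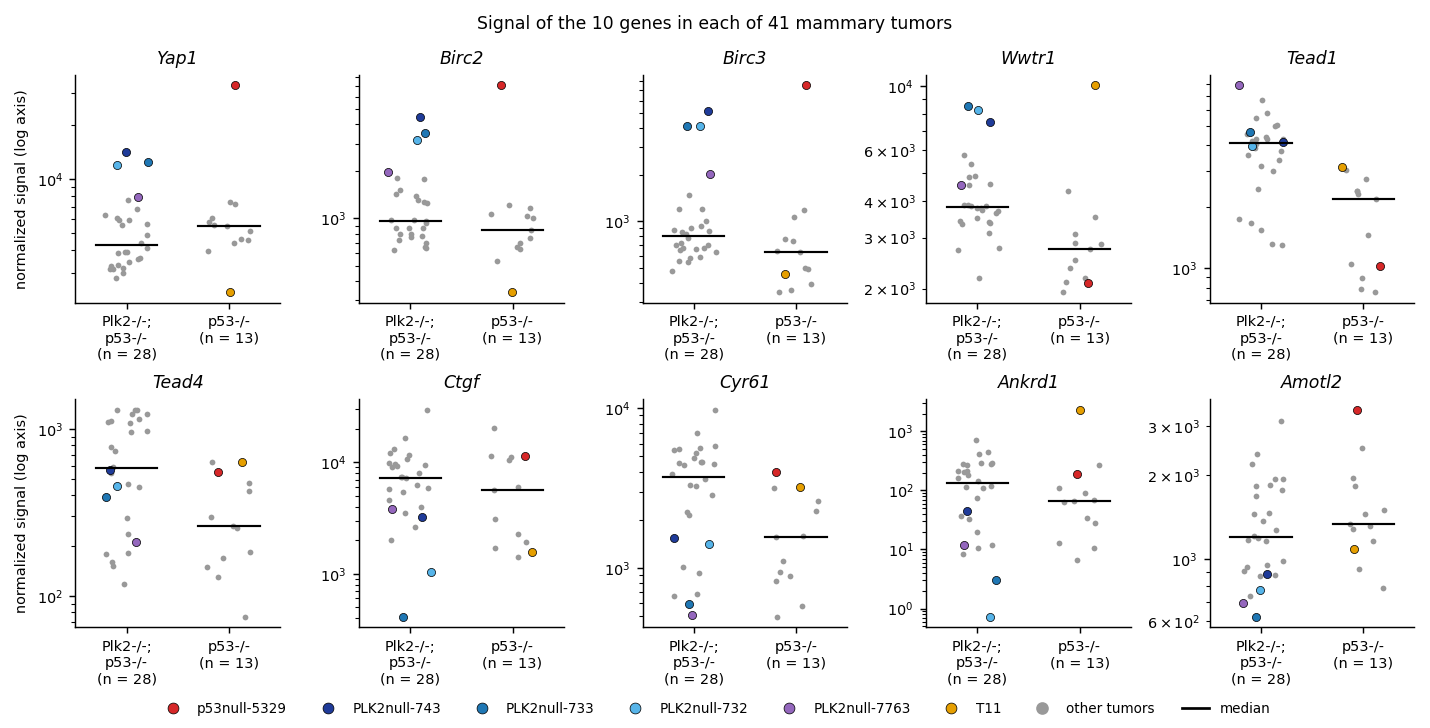
Normalized signal (log axis) of the 10 genes, with 1 point per tumor, the 28 Plk2-/-; p53-/- tumors on the left and the 13 p53-/- tumors on the right of each panel, and a line at each median. p53null-5329 (red) is highest for Yap1, Birc2 and Birc3 and lies among the other p53-/- tumors for Wwtr1 and Tead1, and PLK2null-732, PLK2null-733 and PLK2null-743 (blue) are next for Yap1, Birc2 and Birc3 and lie low for Ankrd1 or Ctgf.

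The genes around Yap1 were then compared, since neighbours that move together need not share a function. Each gene was set against its own median over the 41 tumors on the log2(value + 1) scale, and a difference of at least 1 was counted as high. In p53null-5329, 14 of the 19 tested genes whose start lay within 2 Mb of that of Yap1 were high (73.7%, 95% exact binomial interval 48.8 to 90.9%), where 13.6% of all 17208 genes were high in that tumor. Birc2 and Birc3, for whose levels this tumor was singled out, are among the 14, and without them 12 of 17 were high (70.6%, interval 44.0 to 89.7%). The median difference of the 19 was 2.71, against 0.02 over all genes. The next share was that of p53null-10155, with 9 of 19 (47.4%) against 13.3% over all genes, though its Yap1, Birc2 and Birc3 differed by only -0.30, -0.19 and 0.70 and its high neighbours were matrix metalloproteinase genes, Trpc6, Pgr and Gm16485. PLK2null-7763 had 42.1% against 17.4%. PLK2null-732, PLK2null-733 and PLK2null-743 had 36.8% each against 17.2%, 17.9% and 18%, PLK2null-1981 had 36.8% against 9.07%, and T11 had 15.8% against 11.6%. Without Birc2 and Birc3 the share was 35.3% in PLK2null-7763 and 29.4% in each of PLK2null-732, PLK2null-733 and PLK2null-743. The interval treats neighbouring genes as independent, which they are not, and covers counting error only.

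High neighbours in p53null-5329 included genes of unlike functions. Dcun1d5, a gene of the neddylation machinery, was 3.19 above its median on the log2 scale and Tmem123, a membrane protein gene, 2.91. The matrix metalloproteinase genes Mmp13, Mmp3 and Mmp10, which digest collagen and other matrix proteins, were 4.51, 4.09 and 5.55 above theirs, and Mmp7 6.73. Cep126, a gene of the centrosome and cilium, was 2.71 above its median and Arhgap42, a RhoA regulator, 2.72. Of the 5 neighbours that were not high, the ion channel gene Trpc6 differed by 0.47, Mmp8 by 0.82, Gm10709 by 0.83, and the progesterone receptor gene Pgr and Gm16485 by -0.32 each.

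**Figure D2:**
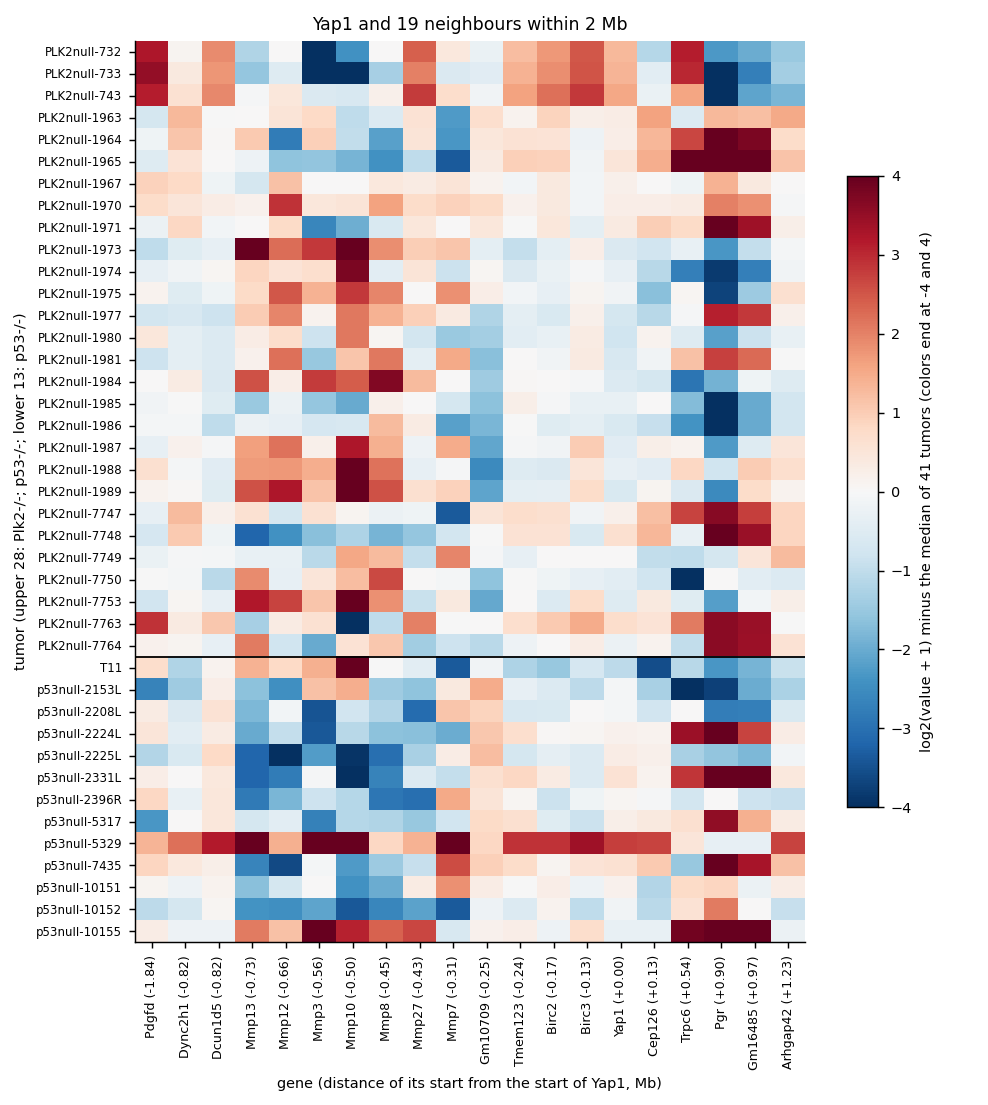
Difference of each gene from its median over 41 tumors on the log2(value + 1) scale (color, ending at -4 and 4), for Yap1 and the 19 tested genes within 2 Mb (columns, in order along chromosome 9, with the distance of their start from that of Yap1) in each tumor (rows). The row of p53null-5329 is red over most columns from Pdgfd to Arhgap42, while the columns of the Mmp genes and of Trpc6 to Gm16485 vary widely among the other tumors.

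The raised stretch in p53null-5329 reached beyond this window. Of the 28 genes with a mean signal of at least 100 from the first tested gene of the chromosome, Alkbh8, to 6 Mb after Yap1, 24 were high (85.7%), not counting Yap1, Birc2 and Birc3, and their median difference was 2.82. The last of them were Mtmr2 at 3.15, Cep57 at 2.95 and Fam76b at 3.07, and the next genes were Sesn3 at -0.76, Endod1 at 1.32 and Cwc15 at 0.17. From 6 to 18 Mb after Yap1 3 of 84 genes were high (3.57%) with a median difference of -0.68, and 7.26% were high over the rest of the chromosome. The 6 Mb position was chosen after the values of this tumor were seen, and the counts describe it.

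PLK2null-732, PLK2null-733 and PLK2null-743 had another pattern. In the first segment 57.1%, 53.6% and 64.3% of the 28 genes were high, and from 6 to 18 Mb after Yap1 59.5%, 58.3% and 72.6% of the 84 genes. Over the rest of the chromosome the shares were 8.78%, 8.11% and 8.95%. PLK2null-7763 had 32.1%, 21.4% and 7.43% in the same segments. Among the other 36 tumors the first segment held at most 32.1% and the second at most 17.9% of high genes. These 3 tumors thus had no drop at Sesn3, which was 1.78, 2.02 and 1.16 above its median in them. RNA levels do not give the number of gene copies, and DNA was not analysed here. The near absence of epithelial markers and the high endothelial and pericyte markers moved with this pattern, and their part in it was not tested.

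**Figure D3:**
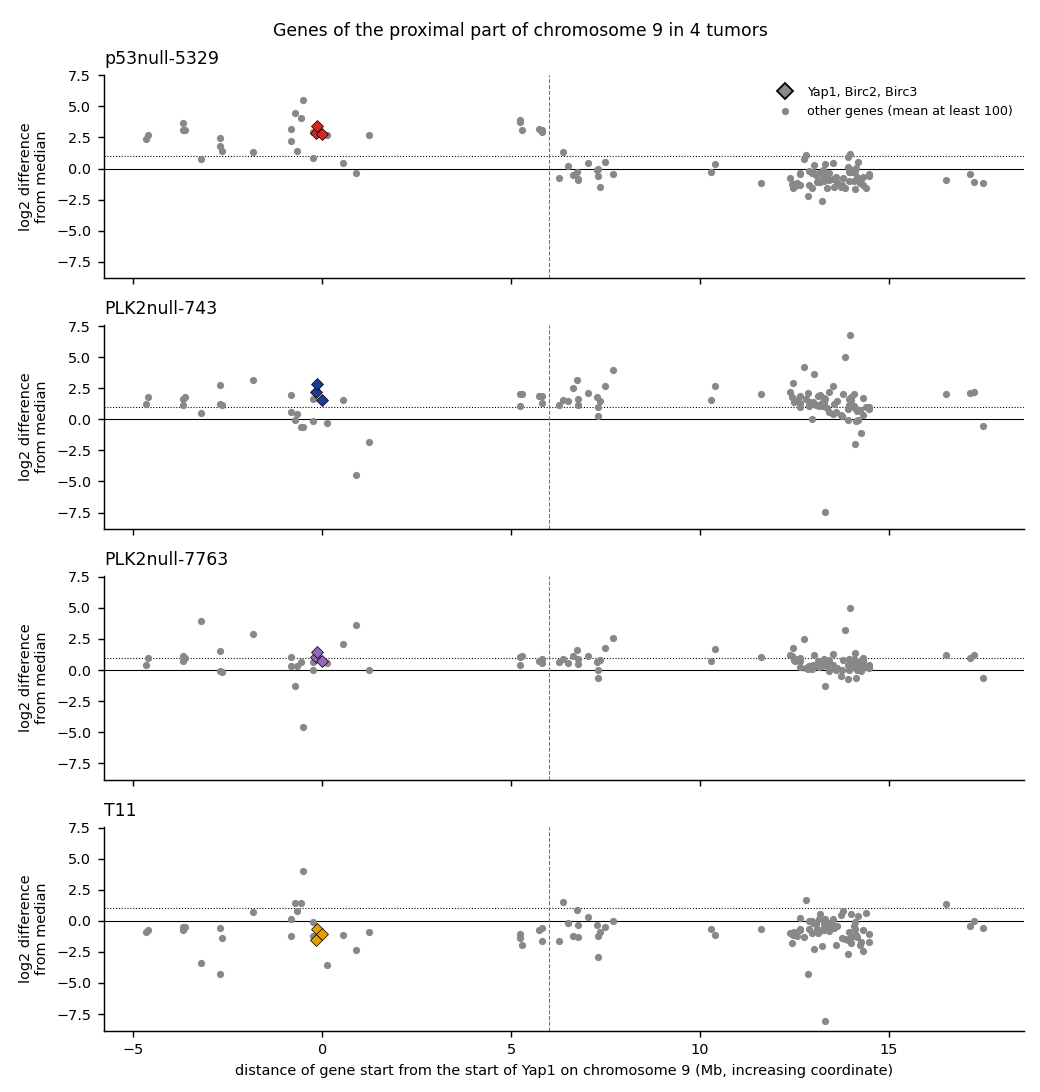
Difference of each gene from its median over 41 tumors (log2(value + 1) scale) against the distance of its start from that of Yap1, for genes with a mean signal of at least 100 in 4 tumors, with Yap1, Birc2 and Birc3 as diamonds, a dotted line at 1 and a dashed line 6 Mb after Yap1. In p53null-5329 the median of the points is 2.82 before the dashed line and -0.68 after it, in PLK2null-743 it is 1.24 and 1.42, in PLK2null-7763 it is 0.68 and 0.52, and in T11 it is -0.81 and -0.71. Over the rest of the chromosome, which is not drawn, the median in T11 is -0.43.

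Yap1 and Birc2 followed each other in both genotypes, while Birc3 followed them only in part. In the 13 p53-/- tumors Pearson's r of Yap1 and Birc2 on the log2(value + 1) scale was 0.93 (permutation p = 0.00071, adjusted p = 0.00781 over 11 relations) and Spearman's rho 0.59 (permutation p = 0.0382, adjusted p = 0.381). This relation was the only one of the 11 with an adjusted p for r below 0.05. Without p53null-5329 and T11, the tumors farthest from the median of Yap1, r was 0.40, so the relation rests on these tumors. Without T11 alone r was 0.92 and no longer passed (permutation p = 0.00895, adjusted p = 0.0984), and without p53null-5329 alone it was 0.73 (permutation p = 0.00966, adjusted p = 0.0265). For Yap1 and Birc3 r was 0.81 (permutation p = 0.0228, adjusted p = 0.0501) and rho 0.32 (permutation p = 0.277, adjusted p = 0.381), and without the same tumors r was 0.03. For Birc2 and Birc3 r was 0.82 (permutation p = 0.0179, adjusted p = 0.0501) and rho 0.33 (permutation p = 0.271, adjusted p = 0.381), and r without p53null-5329 and T11 was 0.13.

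In the 28 Plk2-/-; p53-/- tumors, given as a description with no test, r of Yap1 and Birc2 was 0.96 and rho 0.88. Without PLK2null-732, PLK2null-733 and PLK2null-743 r was 0.90 over 25 tumors, and over the 7 tumors that the study names as primary it was 0.93. For Yap1 and Birc3 r was 0.59 but rho 0.05, and r was -0.17 without the 3 tumors. Birc3 thus shared the highest tumors with Yap1 and Birc2 but not their order among the rest. These correlations share libraries, scaling and any related tumors.

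The genes most like Yap1 over the 41 tumors were its neighbours. Of the 8 genes with the highest r, 7 lay within 5 Mb of Yap1 and the other, Fam76b (0.85), at 5.82 Mb. They were led by Aasdhppt (0.93), Msantd4 (0.91), Birc2 (0.89) and Kbtbd3 (0.89), followed by Dcun1d5, Tmem123 and Cwf19l2. All 8 genes most like Birc2 were on chromosome 9, led by Cwf19l2 (0.93) and Msantd4 (0.90). Of those most like Birc3, 3 were on chromosome 9, Mtmr2 (0.86), Ccdc82 (0.85) and Fam76b (0.80), and none lay within 5 Mb. Within the 28 Plk2-/-; p53-/- tumors those most like Yap1 included Zfp317 (0.97), Cwf19l2 (0.96) and Zfp26 (0.96), and 7 of the 8 were on chromosome 9. Only 3 of these 8 lay within 5 Mb of Yap1, and Zfp317 and Zfp26 lay 11.6 and 12.5 Mb away. Within the 13 p53-/- tumors those most like Yap1 were led by Fam76b (0.94), Birc2 (0.93) and Scd4 (0.93). Of these, 6 of 8 were on chromosome 9 and 4 of 8 within 5 Mb. For Birc3 within the 28 tumors r was 0.93 to 0.95 and none of the 8 was placed on chromosome 9, with Rgs3 and St8sia4 (0.94 each) among them. The lists of the 28 tumors include PLK2null-732, PLK2null-733 and PLK2null-743 and were not made again without them. In these 3 tumors 58.3 to 72.6% of the 84 genes 6 to 18 Mb after Yap1, where Zfp317 and Zfp26 lie, were high. How far these r rest on the 3 tumors was not tested.

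Wwtr1, which encodes TAZ, was highest in other tumors than Yap1. In the p53-/- tumors it ranged from 1942 in p53null-2225L through a median of 2749 to 10096 in T11, and p53null-5329, the highest for Yap1, was second lowest at 2095. In the Plk2-/-; p53-/- tumors it ranged from 2181 in PLK2null-1965 through a median of 3820 to 8507 in PLK2null-733, with 8295 in PLK2null-732 and 7504 in PLK2null-743. T11 thus had the lowest Yap1 and the highest Wwtr1 of the 41 tumors, while PLK2null-732, PLK2null-733 and PLK2null-743 were high for both. Per kb of the longest coding transcript, Yap1 was above Wwtr1 in 21 of 28 and 12 of 13 tumors, with a median ratio of 1.15 and 2.44. The ratio was lowest, 0.260, in T11 and highest, 17.95, in p53null-5329. The genes most like Wwtr1 over 41 tumors were Cttnbp2nl (0.88), Zcchc14 (0.87), Sept11 and Elk3 (0.85 each), Fmnl3 (0.84), Nrp2 (0.83), Ppfibp1 and Piezo1 (0.82 each), and none was on chromosome 9.

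Of the TEAD genes, Tead1 ranged from 760 in p53null-2396R through a median of 2180 to 3126 in T11 in the p53-/- tumors. In the Plk2-/-; p53-/- tumors it ranged from 1291 in PLK2null-1984 through a median of 4122 to 7932 in PLK2null-7763. Tead4 ranged from 74.6 in p53null-2331L through a median of 260 to 637 in T11 in the p53-/- tumors, and from 118 in PLK2null-1963 through a median of 580 to 1304 in PLK2null-7750 in the others. Both were higher in most Plk2-/-; p53-/- tumors, and their ranges overlapped with those of the p53-/- tumors. PLK2null-7763, highest for Tead1, was at 209 for Tead4. Per kb of the longest coding transcript, Tead2 was highest in 27 of 28 and 10 of 13 tumors and Tead3 in 3 of 13, with Tead1 highest in 1 of 28. This ranking depends on the lengths used, 9964 bases for Tead1 and 3396 for Tead2. Which transcripts were expressed is not shown by gene-level values.

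The 4 targets differed in which tumors were high. Ctgf, a secreted matrix protein gene, ranged from 1420 in p53null-2225L through a median of 5606 to 20364 in p53null-2396R in the p53-/- tumors, and from 409 in PLK2null-733 through a median of 7276 to 29631 in PLK2null-1963 in the Plk2-/-; p53-/- tumors. PLK2null-732 was second lowest of the 28 at 1046. PLK2null-1963, which the study describes as basal-like, thus had the highest Ctgf and, at 118, the lowest Tead4 of the 28.

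Cyr61, a secreted matrix protein gene related to Ctgf, ranged from 491 in p53null-2225L through a median of 1552 to 3995 in p53null-5329 in the p53-/- tumors. In the Plk2-/-; p53-/- tumors it ranged from 508 in PLK2null-7763 through a median of 3706 to 9778 in PLK2null-1980. PLK2null-1980 had the lowest Yap1 of the 28, and PLK2null-7763, the lowest for Cyr61, was the fourth highest for Yap1 at 7896.

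Ankrd1, which encodes a muscle ankyrin repeat protein induced by YAP, spanned the widest range. It was at 6.59 in p53null-5317, 66.5 at the median and 35.0-fold above that median in T11 in the p53-/- tumors, where the next tumor was at 265. In the Plk2-/-; p53-/- tumors it was at 0.716 in PLK2null-732, below the floor of 3 reads, at 2.996 in PLK2null-733, 133 at the median and 704 in PLK2null-1981. Amotl2, which encodes an angiomotin that binds YAP and is itself a target, ranged only from 789 through 1337 to 3436 in the p53-/- tumors, with p53null-5329 the highest, and from 618 through 1202 to 3132 in the Plk2-/-; p53-/- tumors, with PLK2null-733 the lowest.

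A higher Yap1 signal did not go with higher Cyr61 or Ankrd1. In the 28 Plk2-/-; p53-/- tumors, as a description, r of Yap1 was -0.78 with Cyr61 and -0.80 with Ankrd1, and rho -0.82 and -0.77. Without PLK2null-732, PLK2null-733 and PLK2null-743 r was -0.83 and -0.79, and over the 7 tumors named as primary -0.90 and -0.88. With Ctgf r was -0.57 over 28 tumors but -0.17 without the same 3, and with Amotl2 -0.03 and 0.51. Wwtr1 had r of -0.11 with Cyr61, -0.30 with Ankrd1, -0.63 with Ctgf and -0.60 with Amotl2 over 28 tumors. Without the same 3 tumors the first 2 changed sign, to 0.32 and 0.27, and the others were -0.22 and -0.46. Cyr61 and Ankrd1 followed each other, with r of 0.87 in the 28 tumors, 0.91 without the same 3, and 0.81 in the 13 tumors.

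In the 13 p53-/- tumors none of the 8 relations with a target had an adjusted p below 0.05 for r. For Yap1 r was 0.09 with Cyr61 (permutation p = 0.794, adjusted p = 0.794) and rho -0.39 (permutation p = 0.188, adjusted p = 0.381). With Ankrd1 r was -0.19 (permutation p = 0.502, adjusted p = 0.642) and rho -0.41 (permutation p = 0.169, adjusted p = 0.381). With Ctgf r was 0.27 (permutation p = 0.431, adjusted p = 0.642) and rho 0.05 (permutation p = 0.879, adjusted p = 1). With Amotl2 r was 0.65 (permutation p = 0.02, adjusted p = 0.0501) and rho 0.41 (permutation p = 0.163, adjusted p = 0.381), and r without p53null-5329 and T11 was 0.13.

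p53null-5329 decided several of these values. Without it, a choice made after seeing the data, r of Yap1 was -0.67 with Cyr61 (permutation p = 0.012, adjusted p = 0.0265) and -0.77 with Ankrd1 (permutation p = 0.00713, adjusted p = 0.0261), and r of Wwtr1 was 0.72 with Cyr61 (permutation p = 0.002, adjusted p = 0.022) and 0.81 with Ankrd1 (permutation p = 0.00535, adjusted p = 0.0261). With all 13 tumors r of Wwtr1 was 0.52 with Cyr61 (permutation p = 0.0511, adjusted p = 0.0936) and 0.72 with Ankrd1 (permutation p = 0.0137, adjusted p = 0.0501), and rho was 0.45 (permutation p = 0.131, adjusted p = 0.381) and 0.36 (permutation p = 0.234, adjusted p = 0.381). Without T11 and p53null-2208L, the tumors farthest from the median of Wwtr1, r was 0.36 with Cyr61 and 0.32 with Ankrd1, and without T11 alone it was 0.30 with Ankrd1, so that relation rests on T11. With both p53null-5329 and T11 left out r of Yap1 was -0.58 with Cyr61 and -0.45 with Ankrd1. With Ctgf r of Wwtr1 was -0.19 (permutation p = 0.583, adjusted p = 0.642) and rho -0.02 (permutation p = 0.964, adjusted p = 1), and with Amotl2 r was -0.18 (permutation p = 0.533, adjusted p = 0.642) and rho 0 (permutation p = 1, adjusted p = 1).

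**Figure D4:**
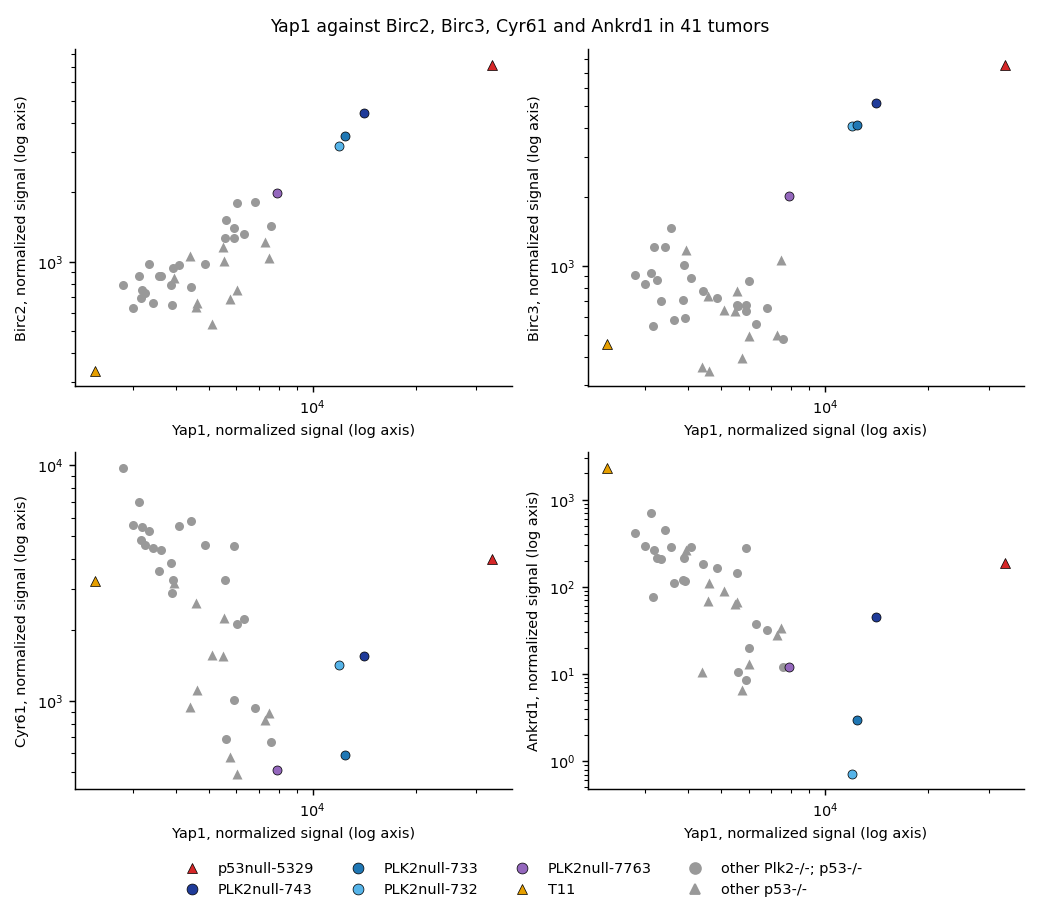
Normalized signal of Yap1 (horizontal, log axis) against that of Birc2, Birc3, Cyr61 and Ankrd1 (vertical, log axes), with 1 point per tumor, circles for the 28 Plk2-/-; p53-/- tumors and triangles for the 13 p53-/- tumors. Birc2 rises along with Yap1 among the circles, the triangles other than p53null-5329 and T11 lie between 3950 and 7457 for Yap1, Birc3 is highest in the colored tumors other than T11, and Cyr61 and Ankrd1 fall from left to right among the circles, and in p53null-5329 Yap1 is at 33397 and Cyr61 at 3995.

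The genes most like Cyr61 over the 41 tumors included Clec5a, Itgam and Trem1, which encode receptors of myeloid cells, and were led by Clec5a (0.90), Il1rn (0.89), Srgn and Sbno2 (0.88 each), followed by Itgam, Trem1 and Junb (0.86 each). These r pool both genotypes and so both library series. Within the 28 tumors Clec5a (0.94), Il1rn (0.92) and Itgam (0.91) were again among the 8, and Trem1 was not. Within the 13 the 8 were led by Dynap and Capn2 (0.88 each) and Cd300ld (0.87), without Clec5a, Itgam or Trem1. Over the 41 tumors the genes most like Ctgf were Alpl (0.77), Rnf128 (0.73), F3 (0.72), which is itself in the list of YAP and TAZ targets, Shroom1 and Timd2 (0.71 each), Parp6, Tmc4 and Zfp612 (0.70 each). Some marker lists moved with Cyr61. With Ctgf r in the 28 and the 13 tumors was 0.14 and -0.12 for macrophage markers and 0.13 and 0.20 for neutrophil markers. It was 0.25 and -0.16 for fibroblast markers, and 0.70 in both groups for epithelial markers. Without PLK2null-732, PLK2null-733 and PLK2null-743 the epithelial r with Ctgf was 0.35. The summed signal of 6 macrophage markers was 4496 to 35466 in the 28 tumors and 6963 to 25596 in the 13, and its r with Cyr61 was 0.76 and 0.46. The summed signal of 6 neutrophil markers, a list added after the genes most like Cyr61 were seen, was 243 to 3124 and 128 to 3235, with an r with Cyr61 of 0.64 and 0.65. Fibroblast markers had an r with Cyr61 of 0.66 and 0.51 and with Yap1 of -0.55 and 0.18. Macrophage markers had an r with Yap1 of -0.54 and 0.36 and with Ankrd1 of 0.64 and 0.37. Neutrophil markers had -0.47 and 0.22 with Yap1 and 0.59 and 0.51 with Ankrd1. Leaving PLK2null-732, PLK2null-733 and PLK2null-743 out of the 28, r with Yap1 was -0.76 for macrophage and for neutrophil markers. With Ankrd1 these r were 0.73 and 0.77. Smooth muscle and myoepithelial markers then had an r of 0.64 with Yap1, -0.61 with Cyr61 and -0.66 with Ankrd1. In the 28 tumors endothelial markers had an r of 0.71 with Yap1 (rho 0.07) and 0.90 with Birc3 (rho 0.60), and epithelial markers of -0.79 (rho -0.52) and -0.88 (rho -0.42). Without PLK2null-732, PLK2null-733 and PLK2null-743 these r were 0.16 and 0.61 for endothelial markers and -0.46 and -0.42 for epithelial markers. In the 13 tumors the epithelial r had the other sign, 0.52 with Yap1 and 0.32 with Birc3. Epithelial markers in p53null-5329 summed to 212258 and endothelial markers to 8043, the range of the other p53-/- tumors being 33757 to 276620 and 2041 to 16463. Its T cell markers summed to 651, the highest of the 13 tumors, against a median of 257. Macrophage, neutrophil and fibroblast markers in it summed to 25186, 1722 and 219385, against medians of 13638, 338 and 59789. The r with Birc3 in the 13 tumors was 0.67 for macrophage and 0.56 for T cell markers. The part of these cell types in the signals was not tested.

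The 28 tumors were compared with the 13 to ask which of the 10 genes differ between these groups. Library series and genotype cannot be told apart here, so no difference can be assigned to the genotype alone. With limma on log2(value + 1) and Benjamini-Hochberg adjustment over all genes tested, 4 of the 10 were called at an adjusted p below 0.05, all higher in the Plk2-/-; p53-/- tumors, where 39.5% of all 17208 genes were called, 24.3% as higher and 15.3% as lower. The share of the 10 genes was thus near the background. Tead1 was higher by 1.12 on the log2 scale (SE 0.237, limma adjusted p = 0.000195), with signals of 3917 ± 1579 (SD, n = 28) and 1854 ± 884 (SD, n = 13). It was the only one of the 10 that was called under every alternative tried. Tead4 was higher by 0.99 (SE 0.357, limma adjusted p = 0.0251), Wwtr1 by 0.48 (SE 0.174, limma adjusted p = 0.0249) and Cyr61 by 0.92 (SE 0.377, limma adjusted p = 0.0496). After rescaling by TMM factors none of these 3 was called, with limma adjusted p of 0.0597, 0.106 and 0.105. Of all called genes 61.38% were higher with the deposited scaling and 48.85% with TMM factors, and the median difference of all genes was 0.10 and -0.02.

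The remaining 6 genes were not called. Their differences were -0.24 for Yap1 (SE 0.241, limma adjusted p = 0.459), 0.32 for Birc2 (SE 0.281, limma adjusted p = 0.386), 0.43 for Birc3 (SE 0.327, limma adjusted p = 0.31), 0.34 for Ctgf (SE 0.418, limma adjusted p = 0.548), 0.28 for Ankrd1 (SE 0.729, limma adjusted p = 0.794) and -0.22 for Amotl2 (SE 0.197, limma adjusted p = 0.397). Without p53null-5329 the difference of Birc3 was 0.71 and called (limma adjusted p = 0.0399), that of Birc2 was 0.56 and not called (limma adjusted p = 0.0586), that of Amotl2 was -0.12 and that of Yap1 was -0.03. Without T11 the difference of Ankrd1 was 0.71, that of Birc2 0.20, that of Ctgf 0.21 and that of Yap1 -0.35, none of them called. Without PLK2null-732, PLK2null-733 and PLK2null-743 Wwtr1 was not called (0.36, limma adjusted p = 0.0565), and the differences of Ctgf, Ankrd1, Birc2, Birc3, Amotl2 and Yap1, none called, were 0.63, 0.70, 0.12, 0.16, -0.13 and -0.40.

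**Figure D5:**
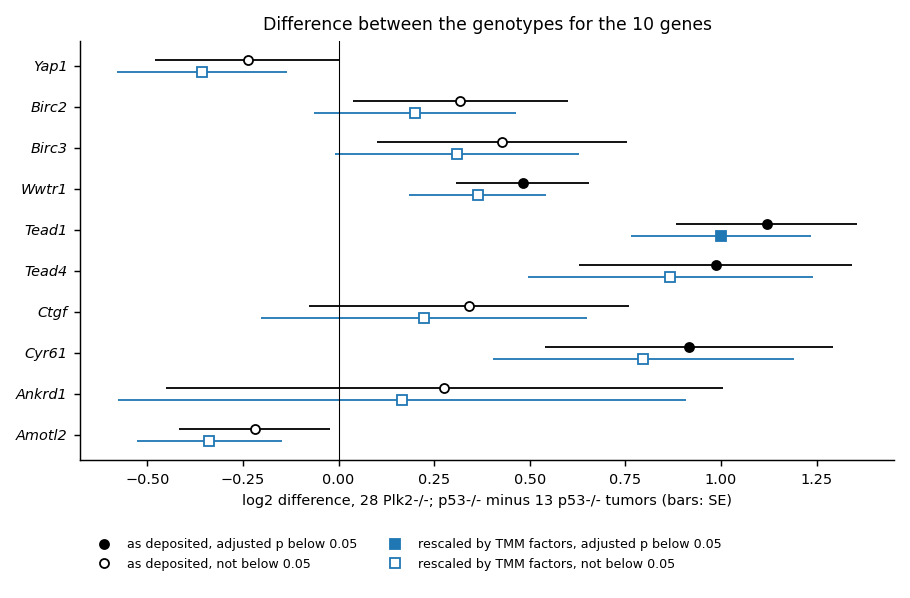
Difference in log2(value + 1) of the 28 tumors without Plk2 from the 13 p53-/- tumors, with the SE as bars, for the 10 genes with the deposited scaling (circles) and after rescaling by TMM factors (squares), filled where the limma adjusted p is below 0.05. With the deposited scaling Tead1, Tead4, Cyr61 and Wwtr1 are filled, and with TMM factors Tead1 alone.

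The wider pathway was described from lists whose members were chosen with earlier results of these tumors known. Of 24 genes of the Hippo kinase cascade and its upstream regulators, 9 were higher in the Plk2-/-; p53-/- tumors, 1 was lower and 14 were not called, with a median difference of 0.34 against 0.10 over all genes. The kinase genes Taok1, Map4k4 and Stk3, which act at the top of the cascade, were higher by 0.87 (SE 0.134, limma adjusted p = 1.41e-06), 0.81 (SE 0.158, limma adjusted p = 5.72e-05) and 0.81 (SE 0.131, limma adjusted p = 2.96e-06). Ajuba, a LIM protein gene whose product holds back LATS, was lower by 0.86 (log2 difference -0.86, SE 0.305, limma adjusted p = 0.0216). Of the 8 tested cofactors and TEAD factors of 10 listed, 3 were higher and 5 not called, the 3 being Tead1, Tead4 and Wwtr1.

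Of 22 YAP and TAZ target genes 5 were higher, 1 lower and 16 not called, with a median difference of 0.30. Myof, a membrane repair gene, was higher by 0.92 (SE 0.372, limma adjusted p = 0.0454) beside Cyr61 and Asap1 (0.86, SE 0.284, limma adjusted p = 0.0135), and Fjx1 was lower (-1.09, SE 0.447, limma adjusted p = 0.0499). Of 10 genes of the inhibitor of apoptosis family and its antagonists 3 were higher and 7 not called, with a median difference of 0.57. The 3 were Naip5, an inflammasome sensor gene, at 1.48 (SE 0.279, limma adjusted p = 4.06e-05), Birc6 at 0.82 (SE 0.126, limma adjusted p = 1.31e-06) and Xiap, a direct caspase inhibitor gene, at 0.76 (SE 0.149, limma adjusted p = 7.1e-05). Of 12 cIAP partners and NF-kB genes 1 was higher and 3 lower, with Ripk1 at 0.39 (SE 0.141, limma adjusted p = 0.0244), Rela at -0.68 (SE 0.142, limma adjusted p = 0.000151), Traf2 at -0.57 (SE 0.14, limma adjusted p = 0.00109) and Nfkb2 at -0.54 (SE 0.206, limma adjusted p = 0.0341). The shares called ranged from 27.3% of the targets to 41.7% of the cascade, beside the 39.5% of all genes. Beside these counts, 2 of 6 epithelial markers were lower and 3 of 6 neutrophil, 1 of 5 pericyte and 1 of 6 macrophage markers higher in the Plk2-/-; p53-/- tumors, with Krt5 at -5.13 and Csf3r at 1.33 on the log2 scale. Of the other marker lists, 4 of 6 skeletal muscle and 1 of 5 smooth muscle and myoepithelial markers were lower, and 0 of 6 fibroblast, 0 of 6 endothelial and 0 of 6 T cell markers were called by limma.

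In the 28 tumors, tumors alike in overall expression also had closer levels of each of the 10 genes, and in the 13 this held for 5 of the 10. Each tumor was paired with the tumor of its genotype that correlated best with it over the most variable genes, leaving out chromosome 9 and the 10 genes, and r of these pairs was 0.41 to 0.96 in the 28 and 0.09 to 0.58 in the 13. In the 28 the median difference to the nearest tumor was 0.13 for Yap1, 0.25 for Birc2 and 0.15 for Birc3 on the log2 scale, where all 378 pairs had medians of 0.62, 0.64 and 0.54. For Tead4 it was 0.22 against 1.18. For Ctgf it stood at 0.71 against 1.003. In the 28 the difference to the nearest tumor was below that over all pairs for 10 of 10 genes, and in the 13 for 5 of 10. The share over all tested genes was not counted. Nearest tumors were picked for likeness over many genes, so these counts show nothing particular to the 10. In the 13 it was 0.37 for Yap1 and 0.19 for Tead1, against 0.44 and 0.90 over all 78 pairs, but 0.82 for Birc3 and 1.43 for Cyr61, against 0.72 and 1.03. p53null-5329 differed from its nearest tumor, p53null-10151, by 2.60 for Yap1, 2.62 for Birc2 and 3.58 for Birc3. No label says which of the 28 share an origin, so some nearest pairs may be related tumors. Tumors that were nearest to each other entered the medians once from each side. In the 13 the r of nearest pairs was at most 0.58, so the values cannot show whether the genotypes differ in this.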

How the data were processed

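RNA-seq of 41 tumors was analysed from the table of gene-level values that the authors deposited. The authors aligned paired reads of 50 bases to mm10 with STAR and quantified genes with Salmon, and the submitters' processing notes name STAR 2.7.6a, Salmon 1.4.0, Picard 2.22.4 and SAMtools. The deposited values are a linear signal, estimated counts divided by the upper quartile of each tumor, which was 1000 here. The annotation used for quantification is not given in the sources used here. In each tumor low values lay on steps of 1 read, but only 77.8 to 80.5% of values lay within 0.1 read of a whole number, so no count model was used. Genotype was taken from the labels, and no group was formed from measured values.

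Genes with a mean of at least 10 were tested with limma 3.58.1 in R 4.3.3 on log2(value + 1), a scale that understates changes of low genes, without a trend, with Benjamini-Hochberg adjustment. The test was tried on simulated data first. Relations within a genotype were Pearson and Spearman correlations with a permutation test of 100000 resamples, 2-sided, in the 13 p53-/- tumors, and a description in the 28. Named genes were the 10 genes, the 3 called genes with the largest change per list and direction, tested genes within 2 Mb of Yap1 and the 8 genes with the highest r, without Gm and Rik names. Of the genes most like Cyr61, 1 is not reported here. Mtmr2, Cep57, Fam76b, Sesn3, Endod1 and Cwc15 were also named as genes around the 6 Mb position after their values were seen. The 10 genes and the lists were chosen with earlier results of these data known. Positions came from GENCODE vM21 (GRCm38), in which 95.0% of symbols matched 1 gene, with Ccn2 for Ctgf and Ccn1 for Cyr61, and promoters from RefSeq (GRCm38.p6). Figures were drawn with matplotlib 3.10.9, and tables were handled in Python 3.11.15 with pandas 2.3.3, scipy 1.17.1 and numpy 2.4.6. Alternatives were other pseudocounts, filters, scalings, windows and sets of tumors. Counting error is all that intervals and the floor cover.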

Additional observations from a re-analysis of the deposited data

How the results depend on the processing

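The number of genes called between the genotypes was 6802 of 17208 tested. It stayed between 5198 and 9053 under other pseudocounts, filters, scalings and when single tumors or PLK2null-732, PLK2null-733 and PLK2null-743 were left out, and was 3096 with only the 7 primary tumors, where fewer tumors entered. The 5198 were of 12880 genes tested with a filter at a mean of 100, and the 9053 of 33691 tested without a filter. Counts under different filters are thus not shares of the same number of genes. Tead1 was called in all 13 settings. Cyr61 lost its call with a pseudocount of 0.1, without a filter, under TMM, quantile normalization, with the 7 primary tumors and without p53null-7435, Tead4 under TMM, quantile normalization and with the 7 primary tumors, and Wwtr1 under TMM, with the 7 primary tumors and without PLK2null-732, PLK2null-733 and PLK2null-743. The difference of Ankrd1, not called, changed sign with the 7 primary tumors (-0.0305). No other member changed direction.

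In the 13 p53-/- tumors 1 of 11 relations passed the threshold, 1 also with a pseudocount of 10 and with TMM factors, 5 without p53null-5329, 0 without T11, 0 without the 2 tumors farthest from the median and 0 by Spearman's rho. By unadjusted permutation p 5 of 11 were below 0.05 for r and 1 for rho, 4 without T11 and 0 without the farthest 2 tumors. Sign changes among relations not called with all 13 tumors were r of Yap1 with Ctgf (-0.39) and Cyr61 (-0.58) and of Wwtr1 with Ctgf (0.26) and Amotl2 (0.19) without the farthest 2 tumors, Yap1 with Cyr61 without p53null-5329 (-0.67, then past the threshold with an adjusted permutation p of 0.0265) and by rho (-0.39), and without T11 Yap1 with Ankrd1 (0.22) and Wwtr1 with Ctgf (0.22) and Amotl2 (0.0112). The cause was not tested. Shares of high neighbours stayed within the interval of the main window with windows of 1 and 5 Mb in all 41 tumors. The windows are nested and the intervals wide, so this check is weak. In PLK2null-743, for example, the share was 36.8% within 2 Mb and 55.2% within 5 Mb. No paired analysis was possible because the labels give no number that pairs tumors across genotypes. Among the 10 genes depth limits only Ankrd1, which was at or near the floor in PLK2null-732 and PLK2null-733. Of the neighbours of Yap1, Mmp7, Pgr and Gm16485 each stood at the same lowest value in several tumors.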
